A study of Mus musculus with 11 samples.

Results

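Expression of 9 transcription regulators known from the luminal lineage of the mammary gland was followed through bulk RNA-seq libraries of pubertal mouse mammary epithelium. These were Gata3, Foxa1, Tbx3, Cited1, Spdef, Grhl2, Ehf, Elf3 and Tox3. They were chosen by symbol, matched to the Entrez gene identifiers of the count table, and are 9 of 27179 identifiers. All 9 passed the filter on low counts, Tox3 through its luminal libraries. The cells came from C57BL/6 female mice aged 5 weeks that carried an E-cadherin GFP reporter, and this background was shared by every group. Terminal end buds (TEBs), the growing tips of the ductal tree, and the subtending ducts were micro-dissected, and lineage-negative CD29+CD24+ cells were sorted into luminal cells (Ecad-GFP hi) and basal cells (Ecad-GFP lo). There were 3 libraries of basal duct, 3 of basal TEB, 2 of luminal duct and 3 of luminal TEB, each from at least 2 pooled mice, and 1 more luminal duct sample was not kept in the study because it held too few cells. The luminal sort does not separate luminal progenitors from hormone-sensing cells, so each luminal value is an average over both.

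The mammary duct has an inner layer of luminal cells, which include progenitors and hormone-sensing cells, and an outer layer of contractile basal cells. Gata3 and Foxa1 bind DNA and act with the estrogen receptor in hormone-sensing cells, and Gata3 is required for luminal cells to form and persist. Tbx3 is a T-box repressor needed for the mammary placode, Cited1 is a co-activator without DNA binding of its own that works with the estrogen receptor, and Tox3 is an HMG-box protein. Spdef, Ehf and Elf3 are ETS factors of epithelia, and Grhl2 is a Grainyhead factor that maintains genes of epithelial junctions.

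On mm10, each member is a protein-coding gene. Positions are those of RefSeq, and strands and overlapping genes are those of GENCODE M21. Gata3 lies at chr2:9857078-9887953, Foxa1 at chr12:57540628-57548029, Cited1 at chrX:102247378-102252181, Spdef at chr17:27714446-27731003, Ehf at chr2:103263431-103303275, Elf3 at chr1:135253574-135258472 and Tox3 at chr8:90247110-90349029, all on the minus strand. Tbx3 lies at chr5:119670534-119684724 and Grhl2 at chr15:37232821-37363569, both on the plus strand. Gata3 overlaps 2 other counted genes, 4930412O13Rik and 9230102O04Rik, and the libraries do not mark strand, so that reads of the overlap cannot be assigned with certainty.

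Promoter windows, 250 bases before to 50 bases after a transcript start, were given by RefSeq (GRCm38.p6) for 6 of the 9 members. Those of Foxa1, Cited1, Elf3 and Spdef are shown because they hold letters bound by factor families of the list itself. The windows of Gata3 and Tox3 held none of the motifs searched. Letters in capitals mark the matches, and each line runs 5′ to 3′ on the strand of the gene.
Foxa1, chr12:57546062-57546361, minus strand: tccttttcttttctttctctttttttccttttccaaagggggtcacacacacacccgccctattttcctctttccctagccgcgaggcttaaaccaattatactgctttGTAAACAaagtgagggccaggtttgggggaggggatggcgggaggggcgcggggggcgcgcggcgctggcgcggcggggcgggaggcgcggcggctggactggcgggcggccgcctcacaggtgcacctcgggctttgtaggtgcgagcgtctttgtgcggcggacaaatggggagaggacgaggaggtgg
Cited1, first of 3 windows, chrX:102252132-102252431, minus strand: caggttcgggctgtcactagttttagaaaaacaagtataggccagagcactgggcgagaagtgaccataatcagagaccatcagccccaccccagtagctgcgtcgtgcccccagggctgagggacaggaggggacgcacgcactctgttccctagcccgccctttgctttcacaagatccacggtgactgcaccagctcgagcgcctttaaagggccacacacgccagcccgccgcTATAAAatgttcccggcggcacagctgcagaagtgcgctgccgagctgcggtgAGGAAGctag
Spdef, chr17:27728902-27729201, minus strand: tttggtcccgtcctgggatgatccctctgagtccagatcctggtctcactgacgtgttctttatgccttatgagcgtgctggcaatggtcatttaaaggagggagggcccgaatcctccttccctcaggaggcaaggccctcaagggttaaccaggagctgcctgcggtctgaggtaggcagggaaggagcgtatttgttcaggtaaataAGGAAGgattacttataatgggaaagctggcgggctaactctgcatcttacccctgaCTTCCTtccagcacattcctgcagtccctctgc
Elf3, chr1:135258423-135258722, minus strand: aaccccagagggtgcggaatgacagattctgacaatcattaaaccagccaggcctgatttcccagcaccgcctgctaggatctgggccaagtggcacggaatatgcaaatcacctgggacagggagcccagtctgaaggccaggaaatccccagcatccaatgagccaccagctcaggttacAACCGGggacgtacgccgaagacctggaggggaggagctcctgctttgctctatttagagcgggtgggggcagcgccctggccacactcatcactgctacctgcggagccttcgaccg

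Both strands were searched for the GATA factor letters TGATAA together with the variant AGATAA, for the forkhead letters TGTTTAC together with the variant TGTTTGC, for the ETS letters CCGGAAG together with the shorter AGGAAG, for the Grainyhead letters AACCGG, and for the TATA box letters TATAAA. The Grainyhead letters can overlap those of the longer ETS motif. The Foxa1 window had a forkhead match, TGTTTAC, with its first base at position -141 relative to the transcript start (position 1) and read on the opposite strand, and 3.65% of 32851 promoter windows of mouse genes held these letters. The Elf3 window had the Grainyhead letters AACCGG at position -68, which 6.83% of windows held. AGGAAG stood at positions -40 and 18 in Spdef and at 41 in the first Cited1 window, and it was common, in 35.4% of windows. TATAAA stood at -13 in the first Cited1 window and occurred in 13.6% of windows. The second Cited1 window, not shown, held AGGAAG at -220 and -60 and TATAAA at -115, and the last of its windows held none of the motifs. The Tox3 window was rich in G and C, with 85.3% G and C and 52 CpG dinucleotides, against medians of 52.7% and 7 over all windows. These matches describe the letters of the windows, and no binding was measured.

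Levels below are counts-per-million (CPM), with library sizes scaled by TMM. Between 27989137 and 49221436 counts were deposited per library. Genes of the mitochondrial chromosome took 4.34% to 37.5% of them, with the highest shares in basal TEB replicate 1 (37.5%) and luminal duct replicate 3 (28.5%). The labels of the sorted populations were matched by their markers. The luminal keratins Krt8, Krt18 and Krt19 summed to 9911 to 15302 CPM in luminal libraries and to 234 to 509 CPM in basal ones, and 6 basal transcription factors, among them Trp63 and Snai2, summed to 32.2 to 96.6 CPM in luminal libraries and 887 to 1223 CPM in basal ones. Markers of other cells were uneven. The 6 fibroblast markers summed to 226 to 840 CPM in the basal libraries and 11.7 to 53.1 CPM in luminal TEB, so that they moved with the basal and luminal sorts, and their part in the differences between these was not tested. In luminal duct they summed to 249.7 CPM in replicate 3 and 6.03 CPM in replicate 1, and the 6 immune markers to 58.5 and 1.43 CPM, with 2 and 4 of the 6 at 0, while basal duct replicate 2 had the highest endothelial (156 CPM) and adipocyte (181 CPM) sums of the basal duct libraries. In bulk libraries of this kind, fewer cells of a type and less RNA per cell cannot be told apart.

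Luminal cells of both structures had higher expression of most of the regulators than basal cells. Apart from Tox3, which entered the test through its luminal libraries and is described by its counts alone, 7 of 8 regulators were higher. Gata3, Foxa1, Tbx3, Cited1, Spdef, Ehf and Elf3 passed an FDR of 0.05 (quasi-likelihood test of edgeR, Benjamini-Hochberg adjustment) in ducts and again in TEBs. Over all 17370 genes tested, 9.71% were higher in luminal cells in ducts and 11.8% in TEBs. Grhl2 was the exception and did not pass in either structure. The median log2 fold change of these 8 genes was 3.84 in ducts and 3.37 in TEBs, compared with -0.08 and -0.04 over all genes tested.

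**Figure D1:**
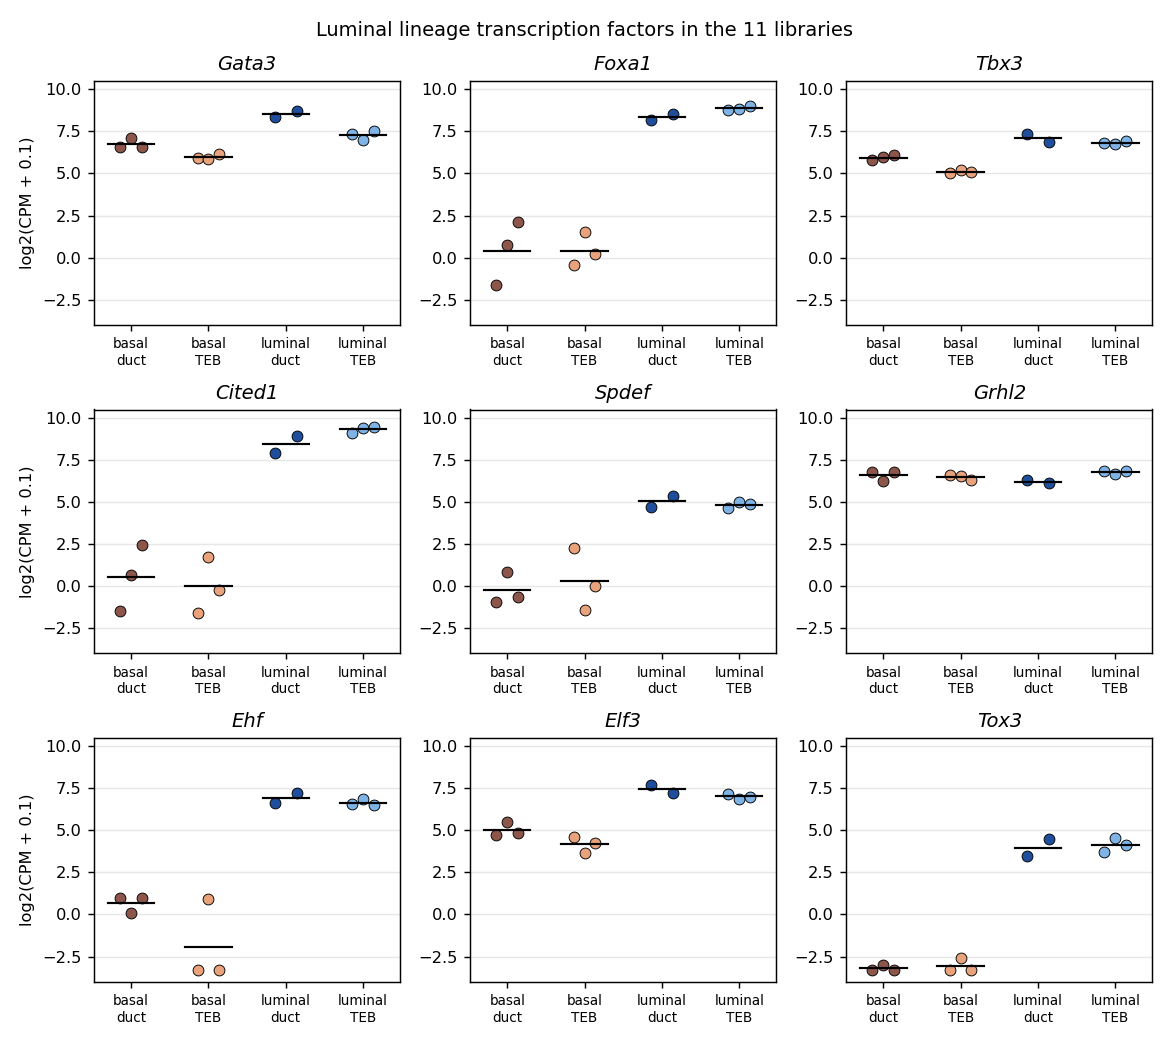
Expression of each regulator in the 11 libraries, as log2(CPM + 0.1) on the vertical axis, by group. Points are libraries and black lines are group means. Foxa1, Cited1, Spdef, Ehf and Tox3 were low in basal cells, with a highest library of 5.36 CPM. Gata3, Tbx3 and Elf3 were lower in basal than in luminal cells, with a lowest library of 12.6 CPM. Grhl2 was at a similar level in the 4 groups.

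The pair with the steepest difference among regulators with more than a few basal counts was Foxa1 and Cited1. Foxa1, a pioneer factor that opens chromatin for the estrogen receptor, was at 294 and 369 CPM in luminal duct and at 444, 458 and 523 CPM in luminal TEB, whereas the basal libraries had 0.219, 1.60 and 4.16 CPM in ducts and 0.635, 2.76 and 1.04 CPM in TEBs. Every luminal library was far above every basal library. The log2 fold change of Foxa1 was 7.40 ± 0.86 (SE) in ducts and 8.24 ± 0.88 in TEBs (FDR 7.28e-05 and 2.73e-05, edgeR with Benjamini-Hochberg adjustment). Cited1 was at 243 and 490.0 CPM in luminal duct, at 558, 686 and 695 CPM in luminal TEB, at 0.259, 1.47 and 5.36 CPM in basal duct and at 0.231, 3.26 and 0.756 CPM in basal TEB. Its groups were again separate, and the basal libraries that were highest for Foxa1, basal duct replicate 3 and basal TEB replicate 2, were also highest for Cited1. For Cited1 the log2 fold change was 7.29 ± 1.04 in ducts and 8.70 ± 1.09 in TEBs.

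Tox3 was almost absent from basal cells. A single read pair was counted in basal duct and 3 in basal TEB, all of them in replicate 2 of the group, and a count of 0 in the other basal libraries allows 0.0599 to 0.173 CPM (a limit of 3 counts, counting error only). The luminal libraries had 10.9 and 22.6 CPM in ducts and 12.8, 23.1 and 17.4 CPM in TEBs. With counts pooled over libraries, the ratio of luminal to basal was 1918 in ducts (95% counting interval 344 to 75839) and 605 in TEBs (207 to 2936).

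Among the ETS factors, Ehf and Spdef were also low in basal cells, and Elf3 was not. Ehf, an ETS factor of glandular epithelia, was at 101 and 148 CPM in luminal duct and at 95.6, 117 and 90.8 CPM in luminal TEB, compared with 1.88, 0.974 and 1.85 CPM in basal duct. In basal TEB its counts were 0, 85 and 0, so that the single value of 1.79 CPM belongs to replicate 2. The log2 fold change of Ehf was 6.30 ± 0.98 in ducts and 7.17 ± 1.01 in TEBs. Without basal TEB replicate 2, a limit of 3 counts over the other 2 libraries puts Ehf in luminal TEB at least 1786-fold above basal TEB. This bound covers counting error only and follows from leaving out the library that holds all of the basal TEB reads. That library had the lowest mitochondrial share of the basal TEB libraries (4.74%).

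Spdef, a factor of secretory epithelia, was at 26.0 and 41.7 CPM in luminal duct and at 25.3, 32.1 and 28.9 CPM in luminal TEB. In basal cells it was at 0.419, 1.71 and 0.539 CPM in ducts and at 4.68, 0.274 and 0.896 CPM in TEBs, where the highest library was replicate 1, the one with the highest mitochondrial share. The luminal and basal ranges were separate, with log2 fold changes of 5.25 ± 0.98 in ducts and 3.94 ± 0.90 in TEBs (FDR 0.00213 and 0.00649, edgeR with Benjamini-Hochberg adjustment). Elf3, which is induced in many simple epithelia, had 209 and 151 CPM in luminal duct and 146, 116 and 128 CPM in luminal TEB. Its basal values were 26.4, 45.0 and 28.8 CPM in ducts and 24.5, 12.6 and 19.2 CPM in TEBs, below the luminal ones in every library, yet in each basal library a larger share of the luminal mean than those of Ehf and Spdef. Elf3 differed by a log2 fold change of 2.43 ± 0.30 in ducts and 2.80 ± 0.29 in TEBs.

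Gata3 and Tbx3, which head the list as regulators of luminal fate and early mammary development, had substantial expression in basal cells. Gata3 was at 333 and 413 CPM in luminal duct, at 163, 127 and 185 CPM in luminal TEB, at 94.2, 136 and 96.1 CPM in basal duct and at 61.7, 58.0 and 72.8 CPM in basal TEB. Luminal and basal ranges did not overlap within a structure, but the highest basal duct library (136 CPM) exceeded the lowest luminal TEB library (127 CPM). The log2 fold change of Gata3 was 1.78 ± 0.22 in ducts and 1.31 ± 0.21 in TEBs (FDR 0.000136 and 0.00055, edgeR with Benjamini-Hochberg adjustment). Tbx3 was at 165 and 118 CPM in luminal duct and at 110.2, 109.8 and 122 CPM in luminal TEB, and in basal cells at 54.8, 61.8 and 67.2 CPM in ducts and 33.0, 37.4 and 33.5 CPM in TEBs. These ranges were separate as well, with log2 fold changes of 1.21 ± 0.19 in ducts and 1.72 ± 0.17 in TEBs.

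Grhl2 had no such difference past the threshold. It was at 111, 75.0 and 109.6 CPM in basal duct, at 96.6, 93.4 and 79.6 CPM in basal TEB, at 78.3 and 69.6 CPM in luminal duct and at 113, 101 and 113 CPM in luminal TEB. In ducts the ranges overlapped, and in TEBs the luminal libraries lay just above the basal ones. The log2 fold change, luminal over basal, was -0.42 in ducts (95% interval -0.86 to 0.03, FDR 0.17) and 0.28 in TEBs (-0.12 to 0.67, FDR 0.299) by edgeR with Benjamini-Hochberg adjustment, and both intervals include 0. Grhl2 passed the threshold in ducts, as lower in luminal cells, only without basal duct replicate 2 (log2 fold change -0.58, FDR 0.0429), its lowest basal library and the one with the endothelial and adipocyte signal noted above; the part of that signal was not tested. Grhl2 was thus not shown to be a luminal-enriched gene in these libraries.

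**Figure D2:**
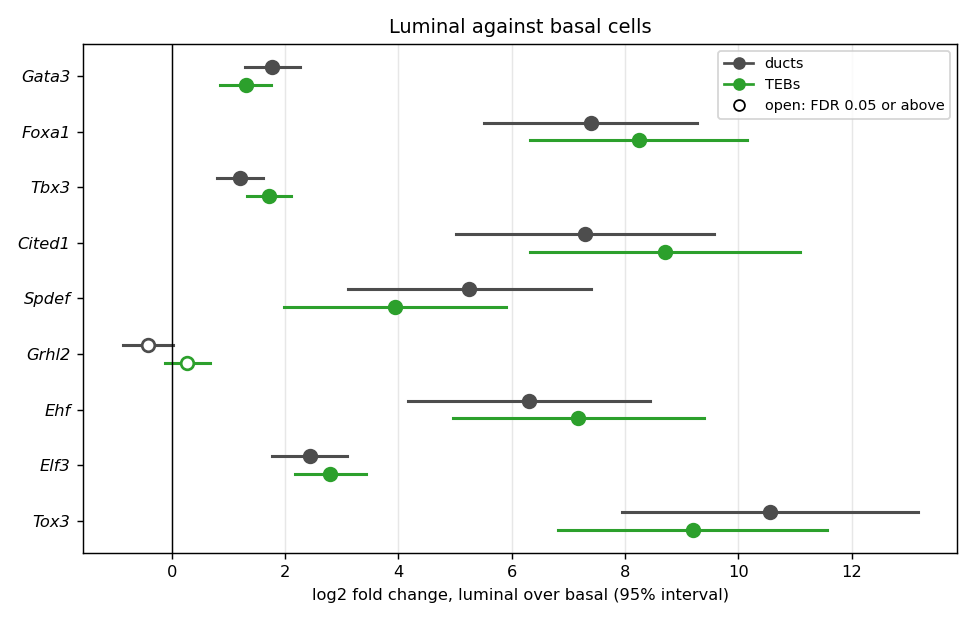
Log2 fold change of luminal over basal cells from edgeR for the 9 regulators, in ducts and in TEBs. Points are estimates, bars are 95% intervals and open points have an FDR of 0.05 or above, which was so for Grhl2 alone. The Tox3 estimate rests on 1 and 3 basal counts and depends on the prior count. Its filled points carry no support, since Tox3 entered the test through its luminal libraries.

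Apart from Tox3, ranges of CPM did not overlap, with luminal higher, for every regulator but Grhl2 in ducts (21.2% of all genes tested) and for every regulator in TEBs (27.2%). The calls of the 7 regulators held in both structures under every alternative that gave a value, the removal of each library in turn included.

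Set against the mean of the luminal libraries of the same structure, the basal level ranged from near the luminal one, for Grhl2, through intermediate to very low. Basal Grhl2 stood at 101% to 151% of the luminal mean in ducts and at 73.1% to 88.7% in TEBs. Basal Gata3 stood at 25.2% to 36.5% of the luminal mean in ducts and at 36.6% to 45.9% in TEBs. For Tbx3 the ranges were 38.7% to 47.5% and 28.9% to 32.8%, and for Elf3 14.6% to 25.0% and 9.66% to 18.8%. The luminal keratin Krt8, measured in the same way, stood at 6.32% to 7.62% in basal duct and 4.10% to 4.38% in basal TEB, and Krt18 was lower still, so that every basal library had proportionally more Gata3, Tbx3 and Elf3 than Krt8 and Krt18.

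By contrast, basal Foxa1 was at 0.0661% to 1.25% of the luminal mean in ducts and 0.134% to 0.581% in TEBs, and basal Cited1 at 0.0708% to 1.46% and 0.0357% to 0.505%. Over the 6 basal libraries, Krt19 ranged from 0.310% to 2.03% and the prolactin receptor Prlr from 0.180% to 0.915%. Foxa1 and Cited1 ranked the basal libraries in the same order within each structure. Cldn4, a gene of epithelial junctions, had that order in both structures. In replicates 1, 2 and 3 it was at 0.565%, 0.850% and 1.21% in ducts and at 0.591%, 0.746% and 0.694% in TEBs. Prlr had that order in ducts (0.180%, 0.502% and 0.797% in replicates 1, 2 and 3) but not in TEBs, and Areg had it in TEBs but not in ducts. Krt8, Krt18, Krt19, Cldn3, Cldn7, Elf5, Tox2, Grhl1 and Prom1 had it in neither. Basal duct replicate 1 was lowest for Foxa1 (0.0661%) and highest for Krt19 (2.03%). Basal TEB replicate 1 was lowest for Cited1 (0.0357%) and highest for Prlr (0.915%). Spdef had a wider range, up to 16.2% in basal TEB replicate 1. Whether luminal cells in the basal sort contributed to these low values was not tested.

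**Figure D3:**
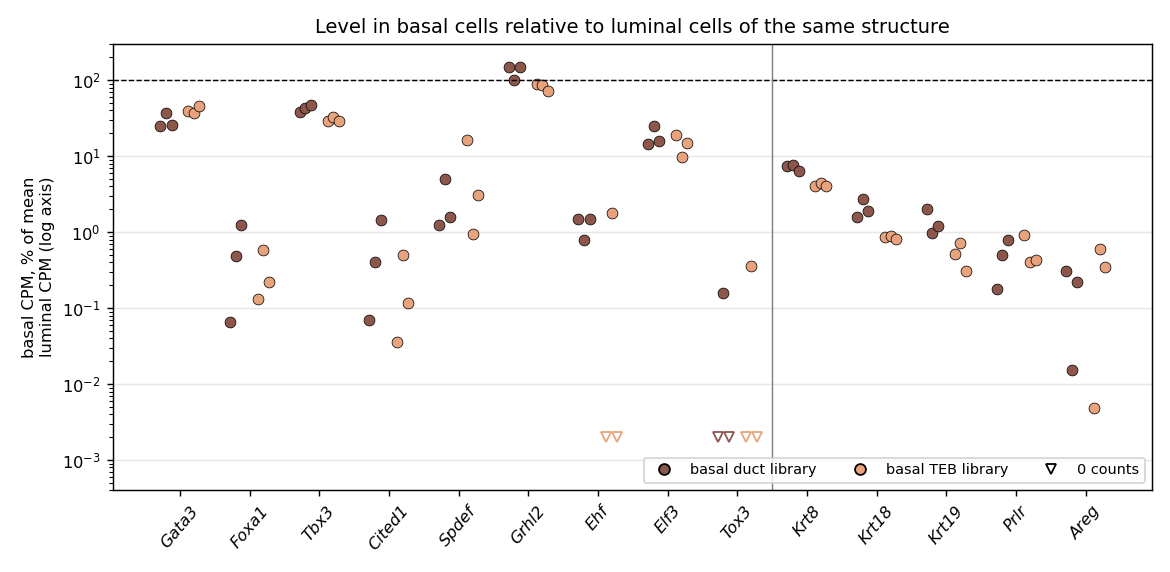
CPM in each basal library as a percentage of the mean luminal CPM of the same structure, on a log axis, for the 9 regulators and, right of the line, 5 luminal genes for comparison. The dashed line marks 100% and triangles mark libraries with 0 counts. Gata3, Tbx3, Grhl2 and Elf3 stood above Krt8 in every basal library.

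Levels of different genes were compared per length, as RPKM (CPM per kilobase of gene model). Cited1 was the most abundant of the 9 in luminal cells, at 376 ± 179 RPKM (SD, n = 2) in ducts and 663 ± 78.4 RPKM (SD, n = 3) in TEBs. In luminal duct Gata3 (116 ± 17.6 RPKM), Foxa1 (104 ± 16.7 RPKM) and Elf3 (90.2 ± 20.5 RPKM) followed, and neighbours in this order overlapped. In luminal TEB the order below Cited1 was Foxa1 (149 ± 13.2 RPKM), Elf3 (65.1 ± 7.66 RPKM) and Gata3 (49.3 ± 9.13 RPKM), with no overlap between neighbours. Ehf, Tbx3, Spdef and Grhl2 lay between 15.0 and 28.3 RPKM in mean in the luminal groups, and Tox3 was lowest, at 5.25 ± 2.59 and 5.57 ± 1.62 RPKM. In basal cells the order was different. Gata3 led with 33.9 ± 7.39 RPKM (SD, n = 3) in ducts and 20.0 ± 2.40 RPKM in TEBs, followed by Grhl2 with 19.9 ± 4.15 and 18.2 ± 1.83 RPKM. Elf3 (16.7 and 9.39 RPKM in mean) and Tbx3 (12.1 and 6.81 RPKM) were next, and the other 5 regulators had means of at most 2.43 RPKM. Gata3 and Grhl2 overlapped in basal TEB but not in basal duct.

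TEBs were then compared with ducts within each cell type, the comparison of the growing tip with the tissue behind it. In luminal cells Gata3 fell in TEBs, and it was the only one of the 9 to pass the threshold, where 1.41% of all genes passed in either direction and 0.771% as lower. The values of 333 and 413 CPM in ducts were above those of 163, 127 and 185 CPM in TEBs, without overlap, with a log2 fold change of -1.23 ± 0.22 (95% interval -1.72 to -0.75, FDR 0.0241, edgeR with Benjamini-Hochberg adjustment). Gata3 was below 0.05 in 17 of 24 alternatives, with FDR from 6.07e-05 to 0.235 and every estimate negative. The fold stayed similar when single luminal libraries were left out while the call was lost in 4 cases. Without luminal duct replicate 3, the library with 28.5% mitochondrial counts, the log2 fold change was -1.07 (FDR 0.0955), and without luminal TEB replicates 1, 2 and 3 it was -1.28, -1.11 and -1.38 (FDR 0.0795, 0.0882 and 0.0714). With library size only, without scaling for composition, it was -0.83 (FDR 0.235). The part of the marker and mitochondrial signals in the Gata3 values was not tested.

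Foxa1, Cited1 and Grhl2 had higher values in every luminal TEB library than in either luminal duct library, and Elf3, like Gata3, had lower ones. Over all genes, 26.2% were higher and 17.4% lower in TEBs without overlap, so these counts of 3 and 2 among 9 lie near what was seen for genes in general. None of Foxa1, Cited1, Grhl2 and Elf3 passed the threshold. Grhl2 came closest, with a log2 fold change of 0.56 ± 0.20 (FDR 0.202), and Cited1 (0.82 ± 0.88, FDR 0.676) and Foxa1 (0.52 ± 0.71, FDR 0.758) had wide errors by edgeR with Benjamini-Hochberg adjustment. Tbx3, Spdef, Ehf and Tox3 overlapped between luminal duct and luminal TEB, and Tox3 had a log2 fold change of 0.09 (95% interval -1.65 to 1.82).

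The luminal groups also differed in their make-up of markers. The 7 basal markers, keratins and contractile genes among them, summed to 95.6 and 270.3 CPM in luminal duct and to 14.7 to 28.0 CPM in luminal TEB, and all 7 were called lower in luminal TEB, against 5 of 7 without the 2 libraries of highest mitochondrial share and 1 of 7 with library size only. The 5 luminal progenitor markers summed to 622 to 778 CPM in luminal duct and 349 to 429 CPM in luminal TEB, and 0 of 5 were called by edgeR with Benjamini-Hochberg adjustment. The part of these differences in the Gata3 result was not tested.

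In basal cells Tbx3 fell in TEBs and was the only one of the 9 that was called, where 1.32% of all genes were called in either direction and 1.16% as lower. The libraries of 33.0, 37.4 and 33.5 CPM in TEBs were all below those of 54.8, 61.8 and 67.2 CPM in ducts. The log2 fold change of Tbx3 was -0.82 ± 0.17 (95% interval -1.20 to -0.45, FDR 0.0415, edgeR with Benjamini-Hochberg adjustment). The call was close to the threshold and was made in 11 of 24 alternatives, with FDR from 0.000366 to 0.333, although the estimate stayed between -0.95 and -0.75. It was lost when any single library was left out except basal TEB replicate 2 and the luminal duct libraries, with FDR between 0.0783 and 0.174.

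Markers moved with this comparison as well. The 7 basal markers summed to 16060 to 19942 CPM in basal duct and 5353 to 8349 CPM in basal TEB, and 4 of them were called lower by edgeR with Benjamini-Hochberg adjustment (2 with library size only). The 3 luminal keratins summed to 425 to 509 CPM and 234 to 268 CPM, and Krt18 was called lower. The 6 fibroblast markers summed to 430.2 to 840 CPM and 226 to 406 CPM, and 0 of 6 were called. Each of these sums was lower in every basal TEB library than in every basal duct library, and their part in the Tbx3 result was not tested.

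Gata3 and Elf3 were also lower in every basal TEB library than in every basal duct library, and neither was called. For Gata3 the log2 fold change was -0.76 ± 0.20 (FDR 0.112), and for Elf3 -0.84 ± 0.27 (FDR 0.192), by edgeR with Benjamini-Hochberg adjustment. With Tbx3, 3 of the 9 were thus lower in TEBs without overlap, against 11.9% of all genes tested. The other 6 overlapped, and those with few basal reads had wide intervals, such as -2.48 to 1.29 for Cited1.

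**Figure D4:**
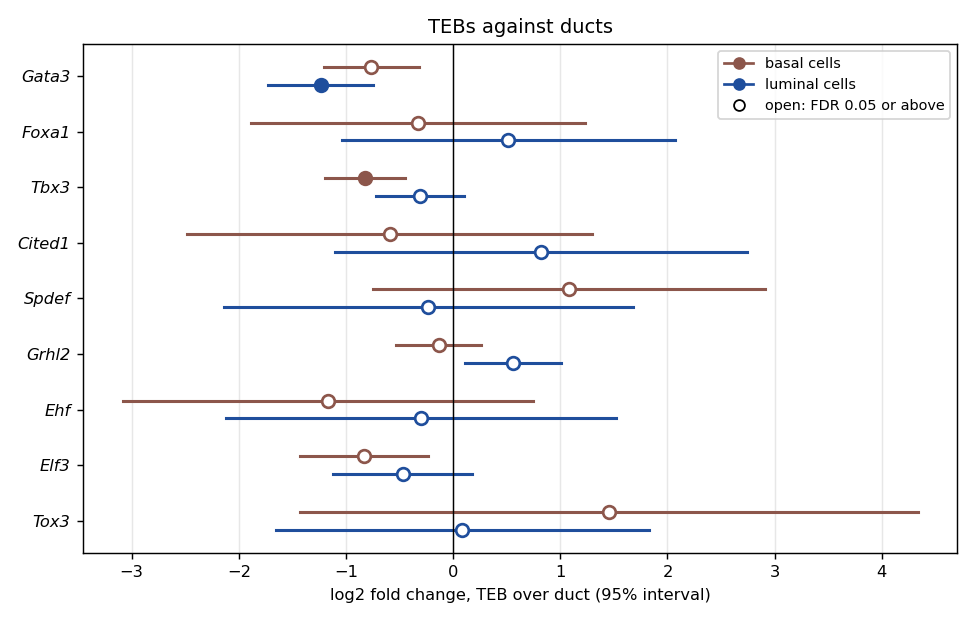
Log2 fold change of TEB over duct from edgeR for the 9 regulators, in basal and in luminal cells. Points are estimates, bars are 95% intervals and filled points have an FDR below 0.05, which was so for Tbx3 in basal cells and Gata3 in luminal cells. Intervals are wide for genes with few reads in basal cells.

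The difference between the cell types in their change from duct to TEB was tested as an interaction, and 0 of the 9 passed in edgeR with Benjamini-Hochberg adjustment, where 0.443% of all genes did. At an unadjusted p below 0.05 there was 1, Grhl2 (difference of log2 fold changes 0.69 ± 0.27, FDR 0.269), and the edgeR likelihood ratio test, DESeq2 and limma voom called 0 as well. For Gata3 the difference was -0.47 ± 0.30 (FDR 0.487) and for Tbx3 0.51 ± 0.26 (FDR 0.378). A fall of Gata3 particular to luminal cells, or of Tbx3 particular to basal cells, was therefore not shown.

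The members were set beside 21 relatives of their own families, of which 15 could be tested. In ducts 5 relatives were higher and 3 lower in luminal cells, and in TEBs 7 were higher and 3 lower, by edgeR with Benjamini-Hochberg adjustment, with median log2 fold changes of 0.18 and 0.32. Over all genes tested, 22.3% in ducts and 25.1% in TEBs were called in either direction, 9.71% and 11.8% as higher. No relative was called between TEBs and ducts in either cell type by the same test.

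Several families split between the cell layers. Tbx2, the closest relative of Tbx3 and like it a repressor, was higher in basal cells, at 20.3, 22.1 and 59.8 CPM in basal duct and 107, 97.5 and 123 CPM in basal TEB, compared with 1.12 and 6.46 CPM in luminal duct and 0.605, 0.648 and 0.713 CPM in luminal TEB. Tbx3 and Tbx2 thus lay on opposite sides, and the log2 fold change of Tbx2, luminal over basal, was -3.20 ± 0.68 in ducts and -7.37 ± 0.70 in TEBs (FDR 0.0048 and 1.09e-05, edgeR with Benjamini-Hochberg adjustment). Per length, Tbx2 exceeded Tbx3 in basal TEB (30.6 ± 3.67 against 6.81 ± 0.47 RPKM, SD, n = 3), and the 2 overlapped in basal duct. The basal TEB libraries were above the basal duct libraries in Tbx2 without overlap and below them in Tbx3, and the Tbx2 change (log2 fold change 1.68 ± 0.53, FDR 0.179) was not called.

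In the CITED family, Cited2 was lower in luminal cells (log2 fold change -1.32 ± 0.24 in ducts and -1.09 ± 0.21 in TEBs), and Cited4 was higher (3.43 ± 0.64 and 2.90 ± 0.60), as Cited1 was. Tox2 followed Tox3, at 5.21 ± 0.40 in ducts and 5.49 ± 0.40 in TEBs, and was more abundant per length, with 49.9 ± 25.1 RPKM in luminal duct (SD, n = 2). Tox went the other way, since basal duct had 6.27 ± 1.75 CPM (SD, n = 3) whereas there were 0 counts in both luminal duct libraries, which allow up to 0.0683 and 0.123 CPM. Grhl1, unlike Grhl2, was higher in luminal cells, with log2 fold changes of 2.55 ± 0.39 in ducts and 2.64 ± 0.37 in TEBs. Among the ELF factors Elf5, which directs alveolar differentiation, had the largest change of those called in ducts (6.44 ± 1.24), and Elf1 rose by less (0.98 ± 0.25). The GATA and FOXA relatives that could be tested, Gata2, Gata6 and Foxa3, had mean levels of at most 1.78 RPKM in any group and were not called.

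**Figure D5:**
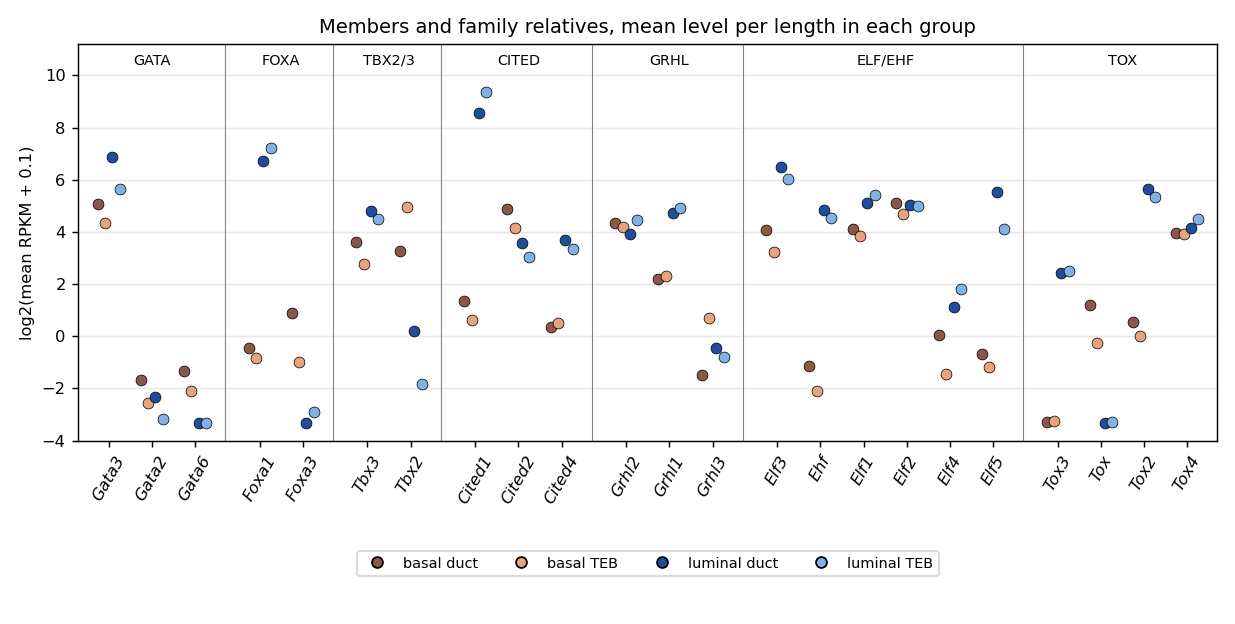
Mean level per length, as log2(RPKM + 0.1), of 8 of the regulators and their 15 tested family relatives in the 4 groups, arranged by family. Tbx2, Cited2 and Tox were higher in basal cells, and Tox2, Cited4, Grhl1 and Elf5 were higher in luminal cells.

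Of 19 other regulators reported in the luminal lineage, all of which were tested, 9 were higher and 4 lower in luminal cells in ducts, and 10 were higher and 4 lower in TEBs. The lists share genes, since Elf5 is also among the family relatives, and Esr1, Pgr and Xbp1 are also among the hormone response genes below. Over all genes tested, 9.71% and 11.8% were higher, and 22.3% and 25.1% were called in either direction. Pgr, the progesterone receptor, and Sox9, a factor of luminal progenitors, had the lowest p of those that were higher, with log2 fold changes of 4.56 ± 0.43 and 2.34 ± 0.24 in ducts. Tfap2c, an AP-2 factor, was lower in luminal cells (-2.87 ± 0.25 in ducts and -3.74 ± 0.22 in TEBs), as was Cebpb (-1.46 ± 0.22 and -1.65 ± 0.19), so membership of such lists did not fix the direction. Between TEBs and ducts 1 of the 19 was called in each cell type, where 1.32% of all genes were called in basal cells and 1.41% in luminal cells. Runx1 fell in basal TEB (-2.03 ± 0.23, FDR 0.00197) and Tfap2c in luminal TEB (-1.06 ± 0.22, FDR 0.0429) by edgeR with Benjamini-Hochberg adjustment. Without the 2 libraries of highest mitochondrial share Tfap2c had a similar log2 fold change of -0.97 that was not called (FDR 0.0862), and with library size only it had -0.66 (FDR 0.366). Runx1 passed in both (FDR 0.00325 and 0.0109).

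Genes of the processes in which these regulators act were mostly higher in luminal cells. Of 8 hormone response genes, 6 in ducts (9.71% of all genes tested) and 5 in TEBs (11.8%) were higher and 0 were lower. Those with the lowest p were Wnt4 (6.84 ± 0.48 in ducts) and Prlr (7.67 ± 0.62). All 9 epithelial junction genes were higher in both structures, although Grhl2 was not, and Cldn4 (6.84 ± 0.31 and 7.20 ± 0.31) and Cldn3 (5.48 ± 0.31 and 6.31 ± 0.31) had the lowest p. Cdh1, 1 of the 9, encodes E-cadherin, whose reporter set the sort, so that its difference is no finding. Of 6 basal transcription factors, 4 were lower in luminal cells in ducts and 5 in TEBs. Of all genes tested, 22.3% and 25.1% were called in either direction.

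For each regulator the gene with the most similar profile over the 11 libraries was sought among 9316 genes whose log2 CPM averaged 3 or more, as the smallest root mean square difference of mean-centred log2 CPM (prior count 2). The 11 libraries fall into 4 groups that differ widely, and the measure is a description over libraries that share those groups. Profiles were centred but not scaled, so genes that vary little, such as Grhl2, differ little from each other. The differences are therefore not comparable between regulators. Foxa1 and Cited1 were each nearest to the other, at 0.52 log2 units. Grhl2 was nearest to the desmosomal cadherin Dsg2, at 0.08. Dsg2 was at 163 ± 32.2 CPM in basal duct, 150.3 ± 27.2 CPM in basal TEB, 113 ± 12.4 CPM in luminal duct and 182 ± 5.81 CPM in luminal TEB. Tbx3 was nearest to H2-T23 (0.21), Gata3 to Rapgefl1 (0.24), Elf3 to Dipk1a (0.30), Spdef to Nbeal2 (0.63), Tox3 to Cldn4 (0.69) and Ehf to Plet1 (0.82). Rapgefl1, like Gata3, had a lower mean in luminal TEB (29.7 ± 6.87 CPM, SD, n = 3) than in luminal duct (59.6 ± 7.59 CPM, SD, n = 2).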

How the data were processed

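RNA was sequenced by the authors from the basal and luminal sorts of both structures, with the TruSeq RNA v2 protocol and 80 bp paired-end reads. The deposited values are whole-number counts for each Entrez gene, made by the authors with featureCounts on mm10, without normalization. Each table of a single library held the values of the matching column of the joint table, with 0 differing values, and 0 columns were left unused. Of 27179 identifiers 25275 had a symbol.

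Counts were analysed in R 4.3.3 with edgeR 4.0.16. The filterByExpr function (minimum count 10, minimum total 15) left 17370 genes, library sizes were scaled by TMM, and 4 groups were fitted in 1 model with the quasi-likelihood test and Benjamini-Hochberg adjustment over all genes tested, at an FDR of 0.05. The common biological coefficient of variation was 0.704. Standard errors were derived from the log2 fold change and the F statistic (its size over the root of F), log2 fold changes are coded luminal over basal and TEB over duct, and SD is over libraries. RPKM divides CPM by the gene model length given in the count table. Counting intervals are exact at 95%, a 0 is bounded above by 3 counts, and both cover counting error only. Replicates are pools of mice, and it is not stated whether the same pool gave several groups, so p-values measure the spread between these libraries.

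The 9 members and the gene lists were chosen with earlier results of these data known. Genes named are the members, the gene with the nearest profile to each (predicted names passed over) and, of each list, up to 4 called genes with the lowest p, or all where 5 or fewer are counted. Alternatives were other scalings and filters, the likelihood ratio test, DESeq2 1.42.0, limma 3.58.1 (voom, with and without quality weights), a fit of only the groups compared, the replicate number as a block, removal of mitochondrial genes or of the 2 libraries richest in them, an FDR of 0.01, and each library left out in turn. The fit was tested on simulated counts in which the changed genes were known. Other assays of the study, ATAC-seq and single cells, were not analysed here. The checks of the lists under other scalings, and without the 2 libraries richest in mitochondrial genes, were added after seeing the data.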

Additional observations from a re-analysis of the deposited data

How the results depend on the processing

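Apart from Tox3, the 7 members called in luminal against basal cells stayed called in both structures when a library of basal duct, basal TEB or luminal TEB was left out. Grhl2 was called as well in ducts, as lower in luminal cells, without basal duct replicate 2. Between TEBs and ducts in basal cells, where 1 was called, the number was 0 with library size only, limma voom with and without quality weights, only the groups compared, the replicate block or an FDR of 0.01, 2 (Tbx3 and Gata3) with the likelihood ratio test and DESeq2, which called 4.07% and 6.16% of all genes against 1.32%, and 0 to 2 when a library was left out. In luminal cells, where 1 was called, it was 0 with library size only, the replicate block, an FDR of 0.01 or without the 2 libraries of highest mitochondrial share, and 0 to 1 when a library was left out. For the interaction it was 0 to 1, the call being Ehf without basal TEB replicate 2 (FDR 0.0101), where its only basal TEB reads lie. Over these settings the share of all genes called ran from 0.328% to 6.16% in basal cells, 0.0576% to 8.07% in luminal cells and 0.0403% to 4.50% for the interaction. The causes were not tested, except that a stricter FDR removes calls by construction.

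Replicate numbers are shared between groups, but nothing says that they mark shared mice. The deviations of same-numbered libraries correlated by more than 0.1 in 4 of 15 pairs (-0.07 to 0.16). Differently numbered libraries ran from -0.16 to 0.14. Same-numbered TEB and duct libraries were all positive within a cell type (0.114, 0.115 and 0.060 in basal cells, 0.163 and 0.069 in luminal cells). These values do not settle whether the numbers mark pairs, and the main fit did not pair the libraries. With the replicate block the FDR was 0.0531 for Gata3 in luminal cells and 0.0728 for Tbx3 in basal cells, the members called were 0 in both, and Tox3 in luminal TEB against duct turned to -0.33.

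Signs turned in 23 of 1065 refits of log2 fold changes, none of which had an FDR below 0.05. Without composition normalization, which moved the median of all genes to -0.16 in basal and 0.42 in luminal cells, luminal TEB against duct became 0.12 for Ehf, 0.19 for Spdef and 0.048 for Tbx3, and the interaction of Gata3 0.068. Basal Foxa1 became 0.36 with limma voom and 0.090 with quality weights. Without the 2 libraries of highest mitochondrial share, Spdef became -0.61 in basal cells, 0.16 in luminal cells and 0.77 in the interaction, and luminal Ehf 0.022. When single libraries were left out, TEB against duct ran in basal cells from -2.13 to 0.88 for Cited1, -1.22 to 0.83 for Foxa1, -0.60 to 1.96 for Spdef and -1.84 to 3.32 for Tox3, and in luminal cells from -0.55 to 0.0050 for Ehf, -0.53 to 0.15 for Spdef and -0.34 to 0.70 for Tox3. The interaction ran from -0.064 to 2.93 for Cited1, -0.31 to 1.72 for Foxa1, -2.20 to 0.40 for Spdef and -3.23 to 1.90 for Tox3.

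Precision was limited by 2 luminal duct libraries and by counts of 0 to 209 for the 5 regulators low in basal cells. A library left out of luminal duct leaves 1, which is then assumed to vary like the other groups. DESeq2 gave no adjusted p for Ehf, and Tox3 could not be tested when only the basal groups were fitted.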
